A study of Mus musculus with 4 samples.

Results

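The SPARC family of matricellular proteins was examined in *Osr1*-expressing limb cells with and without a functional *Osr1* gene. The family was taken by name as *Sparc*, *Sparcl1*, *Smoc1*, *Smoc2*, *Spock1*, *Spock2*, *Spock3* and *Fstl1*, which is 8 of the 23284 gene symbols counted. All 8 genes had enough reads to be tested, among 15645 genes in all. Matricellular proteins are secreted into the extracellular matrix, where they tune how cells meet collagen, growth factors and proteases rather than bearing load. The family shares a follistatin-like domain and an extracellular calcium-binding domain with EF-hands. In developing limbs its members are known from connective tissue, vessels, cartilage and bone.

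The cells came from limbs of C57BL/6J mouse embryos at E13.5. *Osr1* encodes an odd-skipped zinc finger transcription factor of irregular connective tissue, and the GCE allele is a knock-in of eGFP and tamoxifen-inducible Cre that disrupts the gene and reports its activity. Live GFP-positive cells were sorted from *Osr1* GCE/+ embryos, which keep 1 working allele, and from *Osr1* GCE/GCE embryos, which have none. There were 2 samples of each genotype, and RNA was sequenced in 50-bp paired-end reads. The controls carry the knock-in allele as well, so neither group is wild type, and the gate selects cells in which the *Osr1* locus is active in both. The litter of each embryo is not given in the sources used here.

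Total counts ran from 52121596 to 61402140 per sample, and 3 counts correspond to 0.0489 to 0.0576 CPM (counts scaled to the library size), which is the floor of detection for counting error only. *Osr1* was at 81.9 and 79.1 CPM in GCE/+ and at 11.9 and 13.9 CPM in GCE/GCE, with a log2 fold change of -2.64 (SE 0.11, edgeR adjusted p = 5.94e-05). *Xist*, the RNA of the inactive X chromosome, was at 1142 CPM in GCE/GCE replicate 1 and at 0.572 to 2.63 CPM in the other samples, so GCE/GCE replicate 1 stood apart from the rest. By this marker sex was not balanced between the genotypes, and the sources used here do not give the sex of the embryos. Of the fibroblast genes, *Pdgfra* was at 833 to 977 CPM and *Col1a2* at 4482 to 5420 CPM in the 4 samples, so genes that define the labelled mesenchymal cells were present. The same libraries also held RNA of other cell types, given below beside the members they moved with. Fewer cells of a type and less RNA per cell cannot be told apart in these bulk samples.

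The level of each member was first compared per transcript length, as TPM (transcript abundance scaled to the same total in each sample). *Sparc*, a collagen-binding glycoprotein also called osteonectin, was the most abundant member, with 1689 and 1532 TPM in GCE/+ and 1600 and 1195 TPM in GCE/GCE. *Fstl1*, a secreted follistatin-like glycoprotein that binds bone morphogenetic proteins (BMPs), was at 1154 and 1213 TPM in GCE/+ and at 1191 and 1200 TPM in GCE/GCE. *Sparc* was above *Fstl1* in both GCE/+ samples, whereas the ranges of these genes met in GCE/GCE. Together they held 86.0 to 88.0% of the TPM of the family in the 4 samples. By CPM in GCE/+ *Fstl1* ranked 31 and *Sparc* 46 among all genes.

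The remaining members were far lower. *Smoc2*, a modular calcium-binding matrix protein, was at 247 and 311 TPM in GCE/+ and at 261 and 228 TPM in GCE/GCE. *Sparcl1*, also called hevin and known from vessel walls and synapses, was at 84.2 and 75.9 TPM in GCE/+ and at 60.0 and 40.6 TPM in GCE/GCE. Both genes stood clear of their neighbours in the order of levels in each genotype. *Spock3* was at 21.9 and 22.4 TPM in GCE/+, where its range met that of *Smoc1* at 21.9 and 22.2 TPM, and in GCE/GCE they were at 26.9 and 30.1 TPM and at 24.4 and 26.7 TPM. *Spock2* was at 8.61 and 10.2 TPM in GCE/+ and at 8.67 and 8.68 TPM in GCE/GCE. *Spock1* had the lowest TPM in GCE/+, at 5.25 and 5.71, and was above *Spock2* in GCE/GCE, at 9.43 in each sample. In CPM, which takes no account of length, *Spock2* stayed above *Spock1* in all 4 samples, so this exchange of places rests on the transcript lengths used.

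**Figure D1:**
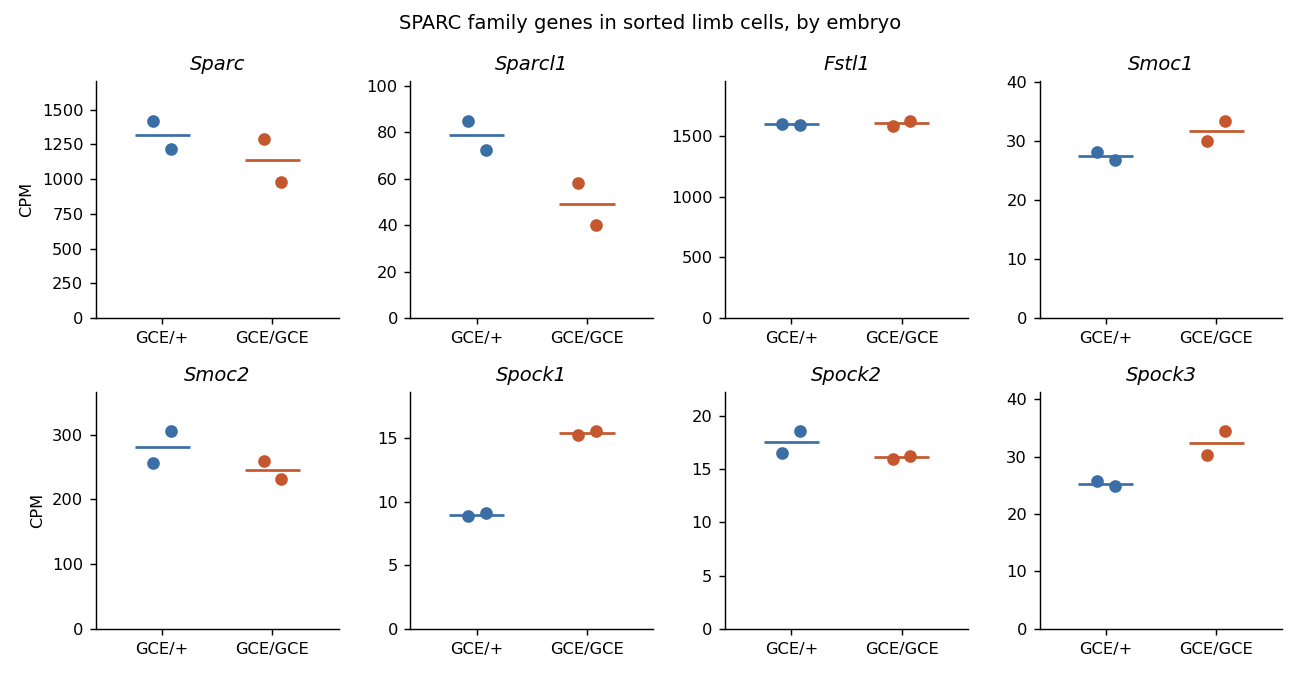
CPM of the 8 members, each in its own panel with its own linear axis, with 1 point for each of the 2 GCE/+ and 2 GCE/GCE samples. *Sparc* and *Fstl1* lie at 983 to 1627 CPM, *Spock1* moves from about 9 to above 15 CPM, and the GCE/GCE points of *Sparcl1* lie below both GCE/+ points.

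To ask which members differ between the genotypes, counts of all genes were fitted with edgeR (quasi-likelihood test, Benjamini-Hochberg adjustment), and a gene was called at an adjusted p under 0.1. Of the 8 members, 1 was called, *Spock1*, which was higher in GCE/GCE. Over all genes 1.82% were called, with 0.895% higher and 0.927% lower. A count of 1 describes *Spock1* and not the family. DESeq2, run as a second tool, called *Spock1* and *Sparcl1*, against 3.45% of 14707 genes. The CPM of the genotypes did not overlap for 5 of the 8 members, 3 higher and 2 lower in GCE/GCE, against 38.4% of all genes, and nothing particular to the family was read from this count. The median log2 fold change of the members was -0.06, beside 0.0033 over all genes tested.

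**Figure D2:**
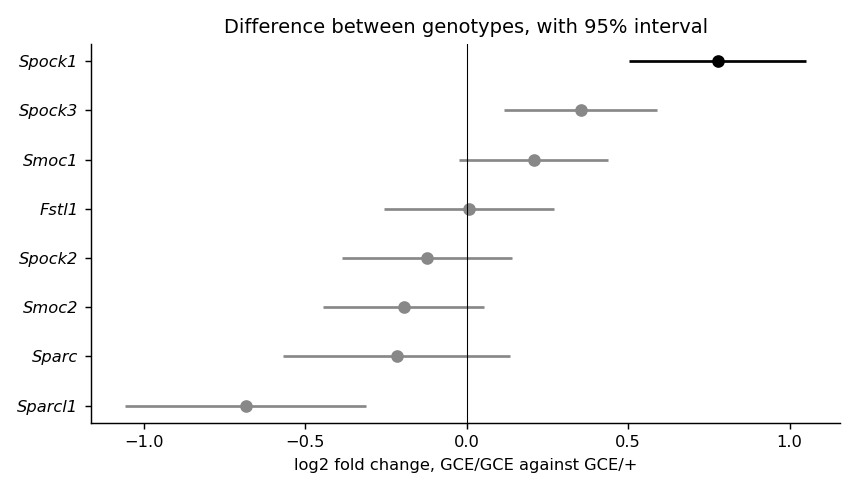
Log2 fold change of GCE/GCE over GCE/+ for the 8 members, with 95% confidence intervals, drawn in black for the called gene and in gray for the others. *Spock1* is at 0.78 and *Sparcl1* at -0.68, and the interval of *Fstl1* is centred near 0.

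The testicans, encoded by *Spock1*, *Spock2* and *Spock3*, are proteoglycans of the family that carry heparan sulfate chains and are known to bear on proteases. *Spock1* was at 8.87 and 9.12 CPM in GCE/+ and at 15.3 and 15.6 CPM in GCE/GCE, from 477 to 953 counts per sample. The samples of a genotype lay close together and the genotypes were well apart. *Spock1* rose 1.71-fold (95% confidence interval 1.42 to 2.07), a log2 fold change of 0.78 (SE 0.12, edgeR adjusted p = 0.0328). It was called under each of the alternatives run, with log2 fold changes from 0.63 to 0.80. Without GCE/GCE replicate 1, the sample that stood apart by *Xist*, its log2 fold change was 0.79 (edgeR adjusted p = 0.0044).

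*Spock3* was at 25.7 and 24.9 CPM in GCE/+ and at 30.2 and 34.4 CPM in GCE/GCE. These ranges did not overlap, but with a log2 fold change of 0.35 (SE 0.10) the gene was not called (edgeR adjusted p = 0.207). *Spock2* was at 16.5 and 18.6 CPM in GCE/+ and at 15.9 and 16.3 CPM in GCE/GCE, with a log2 fold change of -0.12 (95% confidence interval -0.39 to 0.14, edgeR adjusted p = 0.856), which was -0.21 without GCE/+ replicate 1 and -0.04 without GCE/+ replicate 2. By TPM *Spock1* made up 14.7 and 14.9% of the testican sum in GCE/+ and 20.9 and 19.6% in GCE/GCE. The share of *Spock2* was 24.04 and 26.7% in GCE/+ and 19.3 and 18.0% in GCE/GCE. *Spock3* kept the largest share, between 58.5 and 62.4% in the 4 samples. These shares have no test of their own, and that of *Spock1* follows from its own rise.

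*Sparcl1* was the member with the largest difference in the other direction. It was at 85.03 and 72.6 CPM in GCE/+ and at 58.1 and 40.0 CPM in GCE/GCE, from 2451 to 5178 counts per sample. The higher GCE/GCE sample was under the lower GCE/+ sample, with a wider gap between replicates than for *Spock1*. The level in GCE/GCE was 0.622 of that in GCE/+ (95% confidence interval 0.481 to 0.806), a log2 fold change of -0.68 (SE 0.16), which edgeR did not call (adjusted p = 0.117) and DESeq2 did (adjusted p = 0.0017). Without GCE/GCE replicate 1 the log2 fold change was -0.98 (edgeR adjusted p = 6.43e-08) and without GCE/+ replicate 2 it was -0.79 (adjusted p = 0.0618). Without GCE/+ replicate 1 it was -0.57 (edgeR adjusted p = 0.315) and without GCE/GCE replicate 2 it was -0.44 (adjusted p = 0.114), each time on the assumption that the lone sample varies like the other genotype. The call for *Sparcl1* thus depended on the library, the tool and the terms of the fit.

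*Sparc*, the closest relative of *Sparcl1*, was at 1422 and 1221 CPM in GCE/+ and at 1291 and 983 CPM in GCE/GCE. The genotypes overlapped, and the log2 fold change was -0.22 (95% confidence interval -0.57 to 0.13, edgeR adjusted p = 0.761). Leaving out 1 sample moved this value, to -0.43 without GCE/GCE replicate 1 and -0.03 without GCE/GCE replicate 2, without a call. For every 100 TPM of *Sparc* there were 4.98 and 4.96 TPM of *Sparcl1* in GCE/+ and 3.75 and 3.40 TPM in GCE/GCE.

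The SMOC proteins are known as secreted regulators of BMP signalling. *Smoc1* was at 28.0 and 26.8 CPM in GCE/+ and at 29.9 and 33.4 CPM in GCE/GCE, without overlap, with a log2 fold change of 0.21 (95% confidence interval -0.02 to 0.44, edgeR adjusted p = 0.552). *Smoc2* was at 256 and 305 CPM in GCE/+ and at 259.7 and 231 CPM in GCE/GCE, with overlap, and had a log2 fold change of -0.19 (95% confidence interval -0.44 to 0.05, edgeR adjusted p = 0.644). The value for *Smoc2* was -0.32 without GCE/+ replicate 1 and -0.06 without GCE/+ replicate 2, and that for *Smoc1* was 0.13 without GCE/GCE replicate 2. Neither gene was called in any of these fits. Per 100 TPM of *Smoc2* there were 8.86 and 7.12 TPM of *Smoc1* in GCE/+ and 9.34 and 11.7 TPM in GCE/GCE.

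*Fstl1* had the smallest log2 fold change of the members, 0.01 (SE 0.12). It was at 1601 and 1592 CPM in GCE/+ and at 1584 and 1627 CPM in GCE/GCE, and the genotypes overlapped. Its fold was 1.005 (95% confidence interval 0.837 to 1.21, edgeR adjusted p = 0.994), so these samples were compatible with a fold anywhere in this interval.

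Odd-skipped proteins are known to bind a site whose core reads GCTACTG, so the 250 bases before each annotated start were searched for these letters and their reverse complement CAGTAGC. A start window from RefSeq on GRCm38.p6 was given for 5 of the 8 members, with 6 windows, and *Sparcl1*, *Smoc1* and *Smoc2* had none. The letters occurred in 1 of these windows, that of *Fstl1*, and in 3.03% of 32851 windows of all genes. The window of *Spock1*, the called member, is on the minus strand at chr13:57908333-57908582, and that of *Fstl1*, the member with the match, is on the plus strand at chr16:37776805-37777054. Both are written 5′ to 3′ in lower case and end at the base before the start, with the searched letters in capitals.
Spock1: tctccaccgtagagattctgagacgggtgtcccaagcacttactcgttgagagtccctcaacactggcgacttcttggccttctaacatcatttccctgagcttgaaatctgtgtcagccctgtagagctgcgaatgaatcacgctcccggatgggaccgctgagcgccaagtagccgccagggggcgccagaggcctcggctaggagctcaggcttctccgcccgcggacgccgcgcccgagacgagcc
Fstl1: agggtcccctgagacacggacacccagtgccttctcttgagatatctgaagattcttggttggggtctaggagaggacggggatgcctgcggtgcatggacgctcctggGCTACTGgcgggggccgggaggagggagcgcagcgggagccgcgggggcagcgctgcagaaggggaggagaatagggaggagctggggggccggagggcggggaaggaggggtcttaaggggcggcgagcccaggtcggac
The match begins 141 bases before the *Fstl1* start and is a description of letters, not a binding site. The *Spock1* window held 61.2% G and C with 20 CpG pairs, and the *Fstl1* window held 68% with 16 pairs.

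The members differ widely in the length of genome they span, and the samples differed along this measure. Across 15276 genes the Spearman correlation of genomic span with log2 fold change was 0.229, as a description over genes that share the same 4 libraries. The same correlation was 0.331 for the difference of GCE/+ replicate 2 from replicate 1 and -0.148 for that of GCE/GCE replicate 2 from replicate 1, so libraries of 1 genotype also differed by span. *Spock1* covers 487 kb at chr13:57421195-57908332 and *Spock3* 406 kb at chr8:62951000-63357101. Among the 518 genes above 300 kb the median log2 fold change was 0.14, with 30 called higher and 0 called lower. *Spock1* lay above 94.98% of these genes and *Spock3* above 76.3%. With a trend on span removed from each sample, an alternative chosen after seeing the data, *Spock1* had a log2 fold change of 0.63 (edgeR adjusted p = 0.0837) and *Spock3* one of 0.22 (edgeR adjusted p = 0.622).

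The shorter members sat in classes with medians nearer to 0. *Smoc1*, of 160 kb at chr12:81026808-81186414, and *Smoc2*, of 125 kb at chr17:14279490-14404790, belong to the 1712 genes of 100 to 300 kb, with a median of 0.08, and lay above 75% and 10.9% of them. *Sparcl1*, of 35.0 kb at chr5:104079108-104114088, lay above 2.29% of the 4233 genes of 30 to 100 kb, whose median was 0.03. *Fstl1*, of 59.5 kb at chr16:37777055-37836516, lay above 42.8% of the same class. *Sparc*, of 25.9 kb at chr11:55394159-55420080, and *Spock2*, of 28.9 kb at chr10:60106257-60135198, lay above 13.4% and 22.6% of the 4910 genes of 10 to 30 kb. The part of genomic span in the rise of *Spock1* was not tested beyond the alternative given above.

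**Figure D3:**
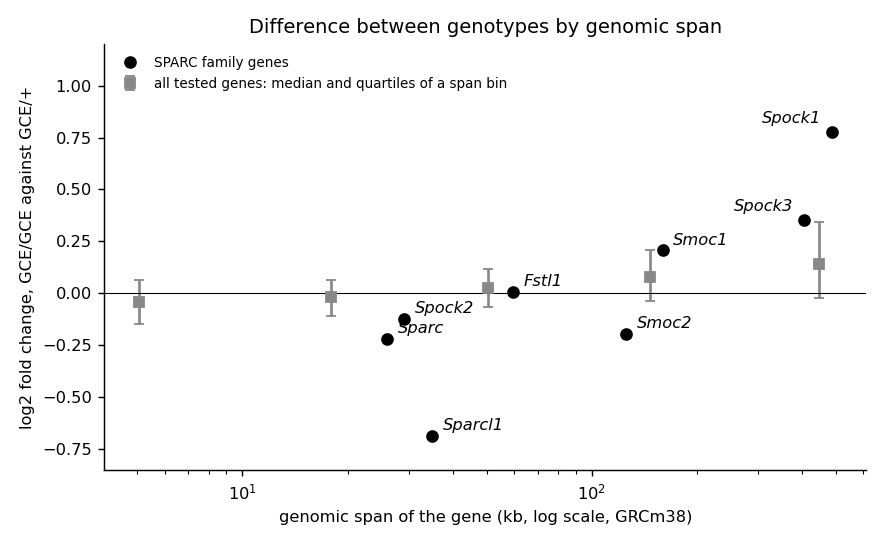
Log2 fold change of GCE/GCE over GCE/+ against genomic span in kb on a log axis, with the 8 members as points and the median and quartiles of all genes in each span class as gray squares with bars. The class medians go from -0.04 at 10 kb or less to 0.14 above 300 kb, with *Spock1* and *Spock3* above the upper quartile of their class, *Sparc*, *Sparcl1*, *Smoc2* and *Spock2* below the lower quartile of theirs, *Smoc1* at the upper quartile and *Fstl1* between the quartiles.

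The partners of these proteins were described from lists of related genes, with calls by edgeR unless DESeq2 is named. Of 12 other genes with follistatin domains that were tested, 1 fell and none rose. It was *Tmeff2*, a membrane protein with follistatin-like domains, at 69.5 and 56.0 CPM in GCE/+ and 35.1 and 25.6 CPM in GCE/GCE (log2 fold change -1.05, SE 0.16, edgeR adjusted p = 0.0324). The median of the list was 0.09, and DESeq2 called 2 genes lower, *Fst* as well as *Tmeff2*. Of the 9 collagens that bind SPARC and their chaperone *Serpinh1*, counted together, edgeR called none, 1 had an unadjusted p under 0.05, and the median was -0.13. DESeq2 called *Col3a1* lower (log2 fold change -0.33, DESeq2 adjusted p = 0.0519), a fibrillar collagen that edgeR gave an adjusted p of 0.684. *Col2a1* stands both in this list and among the cartilage markers. *Col1a1*, the main collagen of connective tissue, was at 3683 and 3109 CPM in GCE/+ and 3462 and 2626 CPM in GCE/GCE (log2 fold change -0.16, edgeR adjusted p = 0.896). The summed CPM of this list was 104 and 95.8% of the GCE/+ mean in GCE/+ and 94.5 and 83.6% in GCE/GCE, with the lowest value in the sample that was also lowest for *Sparc*.

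Among 13 receptors and factors bound by SPARC, 1 rose and 1 fell, with a median of -0.06. *Pdgfc*, a platelet-derived growth factor, was at 34.4 and 35.1 CPM in GCE/+ and 49.1 and 57.5 CPM in GCE/GCE (log2 fold change 0.62, SE 0.10, edgeR adjusted p = 0.0377). *Stab1*, a scavenger receptor that takes up SPARC and is also a macrophage gene, was at 99.7 and 105.5 CPM in GCE/+ and 72.4 and 51.2 CPM in GCE/GCE (log2 fold change -0.73, SE 0.15, edgeR adjusted p = 0.0705). Neither gene overlapped between the genotypes. DESeq2 also called *Tgfb1* lower.

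Of 18 BMP ligands, receptors and targets, 1 fell and none rose by edgeR, with a median of 0.05. *Bmp4*, a BMP ligand of limb mesenchyme, was at 53.8 and 51.95 CPM in GCE/+ and 40.2 and 41.0 CPM in GCE/GCE (log2 fold change -0.38, SE 0.08, edgeR adjusted p = 0.0988, close to the threshold). DESeq2 called *Bmp5*, a further BMP ligand, higher (log2 fold change 0.45, DESeq2 adjusted p = 0.0299, edgeR adjusted p = 0.129). Of 7 FSTL1 receptors and TLR4 co-receptors, 1 fell, with a median of -0.03. It was *Cd14*, a co-receptor that macrophages also express, at 14.0 and 14.7 CPM in GCE/+ and 8.29 and 6.09 CPM in GCE/GCE (log2 fold change -0.998, SE 0.17, edgeR adjusted p = 0.0391), and DESeq2 also called *Egfr* higher. By edgeR none of the 8 proteases and inhibitors related to testicans was called and 2 had an unadjusted p under 0.05, with a median of -0.00113. DESeq2 called *Ctsb*, a lysosomal cathepsin, lower (log2 fold change -0.45, DESeq2 adjusted p = 0.0039, edgeR adjusted p = 0.110), and *Mmp2*, a gelatinase, had a log2 fold change of -0.05 (edgeR adjusted p = 0.959). Neither tool called any of the 11 genes for attachment and synthesis of heparan sulfate, 0 had an unadjusted p under 0.05, and the median was 0.0039. In that list *Xylt1*, which starts the chain, had a log2 fold change of 0.50 (SE 0.25, edgeR adjusted p = 0.576).

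Markers of other cell types moved with the genotype in the same libraries. Of 15 cartilage markers tested, 7 rose, among them *Sox5*, *Sox6*, *Col9a1* and *Matn4* with log2 fold changes of 1.19, 0.97, 0.97 and 0.81. This count was 10 to 15 on leaving out each sample, 13 with the replicate block and 1 with no filter on low counts or at an adjusted p under 0.05. DESeq2 called 7 higher as well, among them *Comp*, which edgeR did not call (log2 fold change 1.075, DESeq2 adjusted p = 0.0081). The summed level of the list was 1027 and 1528 CPM in GCE/+ and 2172 and 2349 CPM in GCE/GCE. Of 10 tendon markers, *Tnmd*, *Mkx* and *Fmod*, with log2 fold changes of 2.06, 1.09 and 0.79, were among the 4 that rose. *Kera*, at -0.71, was the 1 that fell, and the list had sums of 2559 to 3158 CPM in GCE/+ and 2563 to 3291 CPM in GCE/GCE. The largest part of these sums was *Egr1*, at 1705 and 1320 CPM in GCE/+ and 1839 and 1269 CPM in GCE/GCE. They therefore say little of the lower-level markers that rose. DESeq2 alone called *Scx* higher (log2 fold change 0.68, DESeq2 adjusted p = 0.0184) and *Dcn* lower (log2 fold change -0.68, DESeq2 adjusted p = 0.0011). *Runx2*, at 1.05, was the 1 osteoblast marker of 8 that rose, and the sums were 120.3 to 120.6 CPM in GCE/+ and 158.4 to 160.5 CPM in GCE/GCE. Most of the difference between these sums was *Runx2*, at 31.6 and 37.4 CPM in GCE/+ and 68.2 and 74.7 CPM in GCE/GCE. Of the 8, 6 had log2 fold changes above 0 and 2 below. The latter were *Spp1*, at -0.58 without overlap and called lower by DESeq2 (adjusted p = 0.0391), and *Ibsp*, at -0.58 with overlap. *Spock1*, *Spock3* and the cartilage and osteoblast sums were all higher in the GCE/GCE samples than in the GCE/+ samples. Within each genotype *Spock1*, by a small step, and the cartilage sum were higher in replicate 2, and the osteoblast sum was slightly higher in replicate 1. *Spock3* was higher in replicate 1 of GCE/+ and in replicate 2 of GCE/GCE. These orders rest on 2 samples of each genotype.

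Macrophage markers went the other way, with 8 of 11 that fell, among them *C1qb*, *Tyrobp*, *Ptprc* and *C1qa* with log2 fold changes of -1.17, -1.13, -1.04 and -1.03. This count was 4 without GCE/+ replicate 1, 4 with no filter on low counts and 4 at an adjusted p under 0.05. DESeq2 called 9 lower, of which *Cd68* and *Lyz2* were called by DESeq2 alone (DESeq2 adjusted p = 0.0261 and 0.0436). The sums of the list were 333 to 335 CPM in GCE/+ and 148 to 211 CPM in GCE/GCE. The lowest *Sparcl1* level, the lowest macrophage sum, the lowest endothelial sum and the lowest sum of SPARC-binding collagens were all in GCE/GCE replicate 2. Sums of pericyte and smooth muscle markers, Schwann and neural markers, testican-related proteases and other follistatin-domain genes were lowest there too. A low value in this sample was thus not particular to the lists named first. Endothelial cells are a known source of *Sparcl1*. By edgeR none of 12 endothelial markers was called and 7 had an unadjusted p under 0.05, with *Pecam1* at a log2 fold change of -0.41 (edgeR adjusted p = 0.447), a list median of -0.44 and sums of 131 to 159 CPM in GCE/+ and 114 to 132 CPM in GCE/GCE. DESeq2 called 1, *Tie1*, lower. Of the 12, 10 had log2 fold changes below 0 and 2 above. The latter were *Erg*, at 0.35 (edgeR adjusted p = 0.277), and *Tek*, at 0.15 (adjusted p = 0.796), both without overlap. With the length offset and the replicate block edgeR called 3 endothelial markers, in a fit that called 507 genes over all against 285 in the main fit. Some endothelial markers were also called without GCE/GCE replicate 1 and without GCE/+ replicate 2, where more genes were called over all as well. *Sparcl1* was called in each of these fits, so these calls do not set it or the endothelial markers apart from other genes. With the replicate block alone *Sparcl1* was called as well, whereas 0 endothelial markers were. By edgeR none of 10 pericyte and smooth muscle markers was called and 2 had an unadjusted p under 0.05, with a list median of 0.07. *Rgs5* had a log2 fold change of 0.63 (edgeR adjusted p = 0.645) with overlap, *Abcc9* one of -0.29 (adjusted p = 0.342) and *Kcnj8* one of -0.80 (adjusted p = 0.207), and DESeq2 called *Kcnj8* lower. The list had sums of 480 to 493 CPM in GCE/+ and 468 to 536 CPM in GCE/GCE. No counted marker of these types was at 0 in all samples, and their part in the levels of *Spock1*, *Spock3* and *Sparcl1* was not tested.

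By edgeR none of the tested muscle, Schwann and neural, epidermis or erythroid markers was called, which were 9, 10, 7 and 5 genes, and 1, 0, 3 and 0 of them had an unadjusted p under 0.05. The list medians were 0.15, -0.21, 0.02 and 0.15. DESeq2 called 1 of them, the keratin gene *Krt18* of the epidermis list, higher (log2 fold change 0.56, DESeq2 adjusted p = 0.0356). *Pax3* had a log2 fold change of 0.76 (edgeR adjusted p = 0.487), *Sox10* one of 0.09 (adjusted p = 0.959) and *Krt5* one of -0.14 (adjusted p = 0.927). Muscle markers summed to 172 to 220 CPM, Schwann and neural markers to 28.9 to 41.6 CPM, and epidermis markers to 22.7 to 28.8 CPM over the 4 samples. Erythroid markers ranged from 172 to 506 CPM, both in GCE/+, with *Hba-a1* at 0 in all samples.

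**Figure D4:**
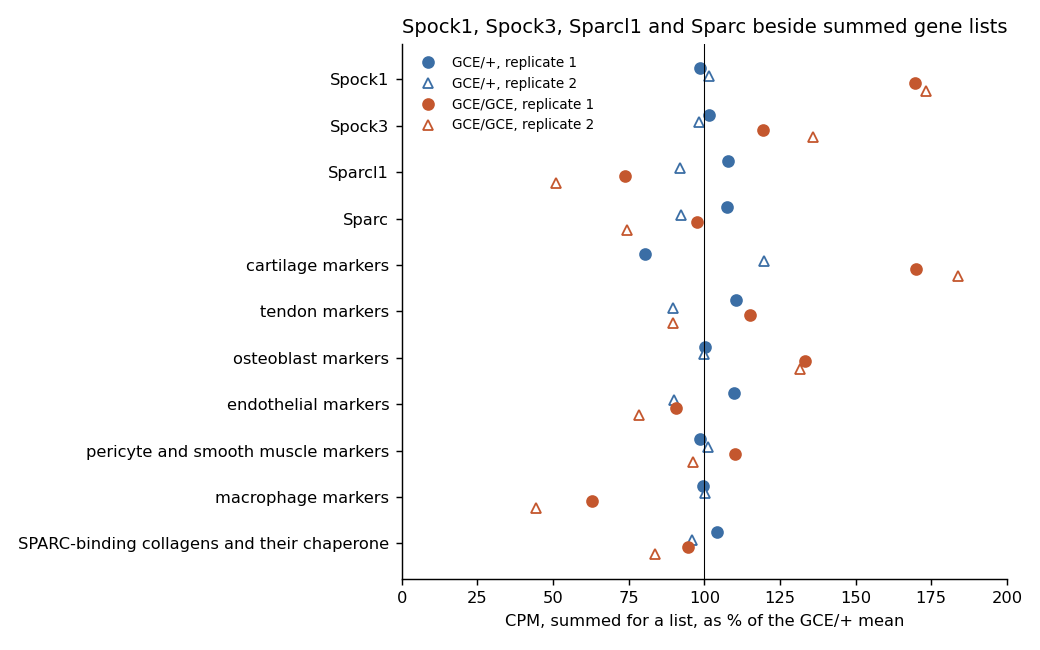
CPM of 4 members and summed CPM of 7 gene lists in each sample, as a percent of the GCE/+ mean, with filled circles for replicate 1 and open triangles for replicate 2. Cartilage markers reach 170 and 184% and macrophage markers 62.9 and 44.4% in GCE/GCE.

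**Figure D5:**
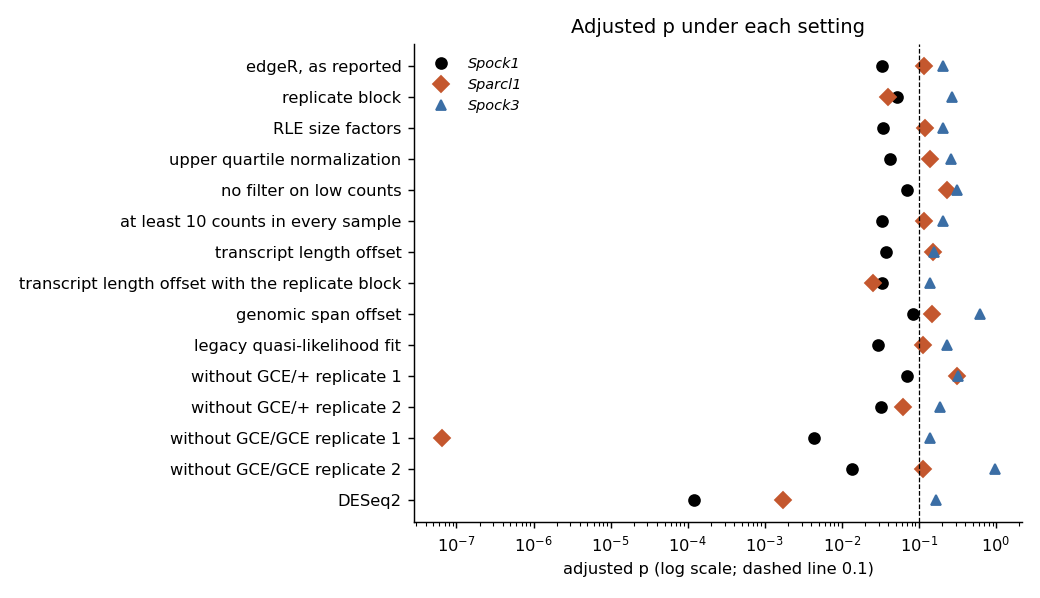
Adjusted p of *Spock1*, *Sparcl1* and *Spock3* under each way of processing, on a log axis, with the threshold of 0.1 as a line. *Spock1* is below the line under every setting, *Sparcl1* under some, and *Spock3* under none.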

How the data were processed

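RNA of sorted limb cells was sequenced as 50-bp paired-end reads from TruSeq v2 libraries. According to the methods and the submitters' processing notes, the authors mapped reads to mm9 with TopHat2 and deposited raw counts per gene from HTSeq; versions are not given in the sources used here. Counting is not stated to use strand, so reads of a gene and of an overlapping or antisense gene cannot be told apart. Of annotated genes overlapping a member, those present in the count tables were at or under 0.0254 CPM.

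The 4 samples were grouped by genotype, 2 against 2. Nothing says that the embryos came from separate litters, so p-values measure only the spread between these samples. Counts were analysed with edgeR 4.0.16 in R 4.3.3 (filterByExpr, TMM scaling, quasi-likelihood test, two-sided) with Benjamini-Hochberg adjustment over all 15645 genes tested and a threshold of 0.1. CPM values are TMM-scaled. TPM used GENCODE M21 transcript lengths, found for 98.0% of symbols; a level between genes rests on these lengths. Spans, coordinates and start windows are from RefSeq on GRCm38.p6, not the mm9 build of the reads. DESeq2 1.42.0, other scalings, filters and offsets, a replicate block and leaving out each sample were alternatives; the legacy quasi-likelihood fit and the span offset were added after seeing the data. The fit was tested on simulated data.

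The members and lists were chosen with earlier results of these data known. All members are named, together with up to 4 called genes of each list with the largest change, the list's leading measured gene where none was called, and the 5 genes nearest in profile to the member with the largest change. *Pdgfra*, *Col1a2*, *Col2a1*, *Abcc9*, *Egr1*, *Ibsp*, *Erg*, *Tek* and the list genes called by DESeq2 alone were named after their values were seen.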

Additional observations from a re-analysis of the deposited data

How the results depend on the processing

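Genes called numbered 285, against 127 with no filter on low counts, 507 with a transcript length offset and the replicate block, 508 with DESeq2 and 130 at an adjusted p under 0.05, and 199 to 961 on leaving out each sample. Members called numbered 1, against 2 with the replicate block, 2 with the length offset and the replicate block and 2 with DESeq2, and 1 to 2 on leaving out each sample. Called genes of the related lists numbered 5, against 3 with no filter, 10 with the length offset and the replicate block, 11 with DESeq2 and 3 at an adjusted p under 0.05, and 4 to 15 on leaving out each sample. By TPM in place of CPM in GCE/+, *Sparc* ranked 1 and *Fstl1* 2 within the family.

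The log2 fold change of *Fstl1*, near 0 throughout, changed sign to -0.0093 with upper quartile scaling, -0.00098 with the length offset, -0.0010 with the length offset and the replicate block and -0.027 with the span offset, and was -0.012 to 0.020 on leaving out each sample. Same-numbered samples did not deviate together (correlation -0.0548 over 9472 genes), so the numbers were not taken to pair embryos. With the replicate block 290 genes were called, with *Spock1* at 0.78 (edgeR adjusted p = 0.0512) and *Sparcl1* at -0.70 (edgeR adjusted p = 0.0395). Of 120 values of members under alternatives, 110 kept direction and side of the threshold. The cause of these differences was not tested. With 2 samples a group, low-count members carry the widest relative counting error. The largest SEs of the log2 fold change were nonetheless those of *Sparcl1* (0.163) and *Sparc* (0.153), which are not the low-count members.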

Other observations

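The 5 genes whose profile over the 4 samples lay nearest to that of *Spock1* were *Il1rap*, *Foxc1*, *Zkscan1*, *Col8a1* and *Fam101b*, out of 9763 genes whose mean reached 10 CPM. Their root mean square distances from *Spock1* in centred log2 CPM were 0.0404, 0.0458, 0.0459, 0.0471 and 0.0656. *Foxc1*, a forkhead transcription factor, was at 15.8 and 16.8 CPM in GCE/+ and at 26.1 and 28.9 CPM in GCE/GCE. *Col8a1*, a short-chain collagen, was at 47.7 and 50.4 CPM in GCE/+ and at 76.8 and 82.0 CPM in GCE/GCE. Likeness over 4 samples is a description only.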
